A study of Mus musculus with 12 samples.

Results

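Neuropeptides and peptide hormones are made as large precursors that are cut, trimmed and modified inside dense-core vesicles. The 10 genes described here encode that machinery and the vesicle's main soluble proteins: the convertases Pcsk1 and Pcsk2, the convertase inhibitor Pcsk1n, the trimming and amidating enzymes Cpe and Pam, and the granin family members Scg2, Scg3, Chga, Chgb and Vgf. They were chosen by symbol, each with the transcript row of highest mean, and all 10 were found among the 23253 genes of the deposited table and among the 13270 genes averaging 1 RPKM or more (reads per kilobase and M reads) that entered the tests. The tissue was the paraventricular nucleus (PVN) of the hypothalamus, whose neurons release oxytocin, vasopressin and several releasing hormones, taken from adult males of 18 to 20 weeks. The miR group, replicates 1 to 6, came from C57/Bl6:129S6/SvEvTac hybrid zygotes injected with a mixture of 9 miRIDIAN microRNA mimics, miR-375, miR-698, miR-204, miR-532-3p, miR-30a, miR-193-5p, miR-29c, miR-32 and miR-30c, at 1 ng/uL in all and 0.11 ng/uL of each. The PBS group, replicates 7 to 12, came from zygotes of the same hybrid background injected with the 1X DPBS vehicle alone. All embryos of both groups were carried by CD1 dams, and each library is the punched tissue of 1 animal. The mimics were given once, to the zygote, and their presence in the adult was not measured in these libraries. Litters are not given in the labels, so p-values measure the spread between these animals.

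The convertases cut precursors after pairs of basic residues, Pcsk1 acting early in the secretory pathway and Pcsk2 later, in the maturing vesicle. Pcsk1n encodes proSAAS, a granin-like protein whose C-terminal part inhibits the Pcsk1 product. Carboxypeptidase E, from Cpe, removes the basic residues that the cut leaves behind, and the Pam enzyme turns a C-terminal glycine into the amide that oxytocin and vasopressin need for activity. The granins bind calcium and cargo, help the vesicle to form, and several are themselves cut into peptides. In the magnocellular neurons of the PVN this machinery serves the very large output of oxytocin and vasopressin.

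The spacing of the lowest values gave depths of 22.8 to 45.1 M reads per miR library and 27.6 to 38.1 M reads per PBS library. At these depths and transcript lengths the 10 genes rest on about 2280 reads in the weakest case (Pcsk1n) to about 69572 in the strongest (Cpe), so counting error is small beside the spread between animals. All 7 listed PVN genes, among them Sim1 and Otp, passed the filter, with a summed level of 104 to 126 RPKM in miR, against 95.8 to 142 RPKM in PBS. All 8 listed thalamic markers passed too, at a sum of 154 to 423 RPKM in miR, against 189 to 320 RPKM in PBS. Passing the filter therefore does not tell the PVN from tissue next to it. Of 6 anterior pituitary hormone genes 1 reached a mean of 1 RPKM, and Fshb was at 0 in all libraries. PBS replicates 8, 9, 10 and 12 stand apart by their nuclear-retained RNAs: Meg3 measured 49.9 to 68.1 RPKM in miR, and in PBS it ranged from 50.6 to 316 RPKM. Results that these libraries or PBS replicates 7 and 11 decide are given with and without them. The score of 6 nuclear-retained RNAs, used as a covariate, was above 0 only in PBS replicates 8, 9, 10 and 12. All 6 RNAs were lower in miR, each with an unadjusted p under 0.05 in limma, so this covariate overlaps with group. Without PBS replicates 8, 9, 10 and 12, only PBS replicates 7 and 11 remain against the 6 miR libraries. Whether nuclear RNA accounts for an estimate that shrinks under either setting was not tested.

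The promoters of the granin genes are shown first because cyclic AMP and calcium signals are known to act on several of them through the palindrome TGACGTCA (the cyclic AMP response element). RefSeq promoter windows of GRCm38.p6, from 250 bases before to 50 after the start, were at hand for 8 of the 10 genes, all except Cpe and Vgf. The full palindrome, which reads the same on both strands, was found in 3 of the 8, Scg2, Chgb and Pcsk1, while 2.03% of 27025 genes had it in a window of the same length. The shorter core TGACG, or CGTCA on the other strand, which every full palindrome contains, was found in 6 of the 8 (also in Pcsk2, Scg3 and Chga), against 23.0% of genes. Neither Pam nor Pcsk1n had the core in its window. The windows with the full palindrome and that of Chga are printed in the gene's own direction, with the palindrome, or in Chga the core, in capitals. They lie at chr1:79439977-79440276 on the minus strand (Scg2), chr2:132781392-132781691 on the plus strand (Chgb), chr13:75089607-75089906 on the plus strand (Pcsk1) and chr12:102554691-102554990 on the plus strand (Chga).
Scg2: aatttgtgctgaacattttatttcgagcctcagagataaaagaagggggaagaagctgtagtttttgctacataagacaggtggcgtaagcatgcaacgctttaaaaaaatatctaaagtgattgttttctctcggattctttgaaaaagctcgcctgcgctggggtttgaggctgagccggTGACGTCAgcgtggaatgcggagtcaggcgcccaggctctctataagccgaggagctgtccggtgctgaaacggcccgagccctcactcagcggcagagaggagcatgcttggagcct
Chgb: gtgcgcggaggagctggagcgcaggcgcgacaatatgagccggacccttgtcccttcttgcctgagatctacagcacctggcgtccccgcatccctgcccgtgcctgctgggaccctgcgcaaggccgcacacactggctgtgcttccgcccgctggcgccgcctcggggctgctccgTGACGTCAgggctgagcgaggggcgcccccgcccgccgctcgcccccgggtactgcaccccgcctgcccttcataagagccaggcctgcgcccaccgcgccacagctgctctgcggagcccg
Pcsk1: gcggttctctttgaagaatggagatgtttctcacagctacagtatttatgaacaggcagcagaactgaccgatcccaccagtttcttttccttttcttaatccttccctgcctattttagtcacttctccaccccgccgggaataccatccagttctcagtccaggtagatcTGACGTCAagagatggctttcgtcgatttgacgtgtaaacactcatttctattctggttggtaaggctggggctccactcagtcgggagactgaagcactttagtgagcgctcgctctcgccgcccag
Chga: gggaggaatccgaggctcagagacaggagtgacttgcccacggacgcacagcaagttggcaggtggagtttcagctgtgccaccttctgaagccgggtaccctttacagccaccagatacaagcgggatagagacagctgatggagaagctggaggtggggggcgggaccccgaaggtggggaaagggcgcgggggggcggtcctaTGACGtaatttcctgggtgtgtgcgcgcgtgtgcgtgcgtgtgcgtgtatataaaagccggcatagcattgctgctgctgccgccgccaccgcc
The capitals begin 68 bases before the start in Scg2, 72 in Chgb, 78 in Pcsk1 and 44 in Chga. The palindrome is a match of letters in a window and no binding was measured here.

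The machinery is abundant in this tissue, at levels that differ widely between its genes. The order by mean RPKM over the 12 libraries was Cpe (751), Scg2 (408), Pcsk1n (168), Scg3 (124), Pam (98.3), Chgb (95.3), Chga (84.0), Vgf (67.0), Pcsk2 (59.9) and Pcsk1 (33.8). Of the 9 steps in that order 6 held in every library. Pcsk1n and Scg3 (Pcsk1n higher in 8 of 12 libraries), Pam and Chgb (7 of 12) and Vgf and Pcsk2 (9 of 12) did not differ beyond 1 SD of their log2 ratio. The trimming enzyme Cpe thus had the highest level, and the convertase Pcsk1 the lowest, per length of transcript. For comparison, the precursor Oxt averaged 2703 ± 942 RPKM in miR, against 2646 ± 1010 RPKM in PBS (SD, n = 6 each), and Avp 800.2 ± 246 RPKM in miR, against 1039 ± 382 RPKM in PBS. The precursor Sst averaged 465 ± 125 RPKM in miR, against 430 ± 58.9 RPKM in PBS, and Trh 168 ± 22.8 RPKM in miR, against 167 ± 20.3 RPKM in PBS. Penk averaged 56.2 ± 11.7 RPKM in miR, against 54.7 ± 10.5 RPKM in PBS, and Crh 10.3 ± 1.32 RPKM in miR, against 14.1 ± 5.11 RPKM in PBS.

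**Figure D1:**
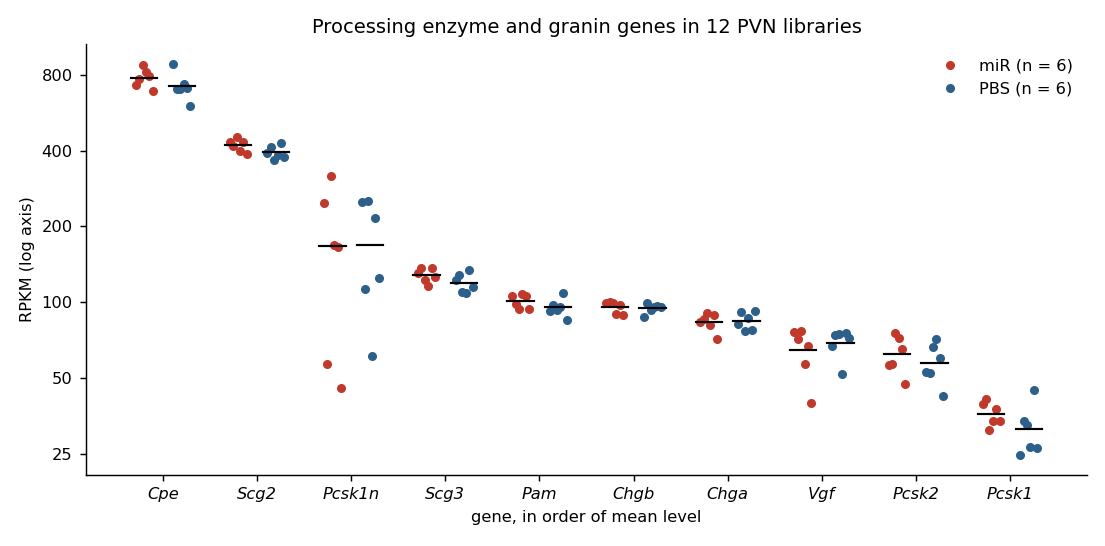
RPKM on a log axis of the 10 genes in order of mean level, one point per library, miR in red to the left of PBS in blue, with the group mean as a black line. Pcsk1n spreads from 45.7 to 317 RPKM over the libraries, while Chgb stays between 87.2 and 100.3 RPKM.

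Pcsk1n varied far more between animals than the other 9 genes. It spanned 6.95-fold from its lowest to its highest library, and its within-group SD on the log2 scale was larger than that of 99.9% of the 3321 genes averaging 20 RPKM or more. The corresponding span was 1.93-fold in Vgf, 1.81-fold in Pcsk1, 1.78-fold in Pcsk2 and 1.47-fold in Cpe. Pam, Scg2, Scg3, Chga and Chgb lay between 1.15-fold and 1.29-fold. Chgb was the steadiest, with an SD above that of only 10.1% of those genes.

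The convertases come first in the pathway. Pcsk1 (chr13:75227435-75269946 of mm9, plus strand) measured 31.0 RPKM at the lowest, 35.8 at the median and 41.2 at the highest in miR, against 24.7, 29.5 and 44.7 RPKM in PBS. The groups overlap, with PBS replicate 11 above every other library and PBS replicates 7, 10 and 12 below every miR library. Pcsk2 (chr2:143371869-143642018, plus strand) measured 47.5, 60.9 and 75.6 RPKM at the lowest, median and highest in miR, against 42.3, 56.3 and 71.5 RPKM in PBS. Here the groups overlap over most of their range. The antisense transcripts C630020P19Rik and 9430032N09Rik lie within Pcsk2 at means of 4.49 and 4.74 RPKM, and the sources used here do not give the strand setting of the counting.

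The inhibitor gene Pcsk1n (chrX:7496948-7501536, plus strand) measured 248, 56.7, 317, 169, 165 and 45.7 RPKM in miR replicates 1 to 6, against 249, 113, 253, 61.1, 216 and 124 RPKM in PBS replicates 7 to 12. Each group holds both low and high libraries, with miR replicates 2 and 6 and PBS replicate 10 the lowest of all. Its averages were 167 ± 106 RPKM in miR, against 170 ± 80.6 RPKM in PBS (SD, n = 6 each). The antisense gene Eras overlaps it at 0.128 RPKM.

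Of the enzymes that finish the peptide, Cpe (chr8:67071349-67171837, minus strand) measured 691, 781 and 874 RPKM at the lowest, median and highest in miR, against 602, 706 and 887 RPKM in PBS. Apart from PBS replicate 7, which was the highest library, 5 of 6 PBS values lay below the miR median. Pam (chr1:99717671-99992209, minus strand) measured 94.1, 102 and 108 RPKM in miR in the same order, against 85.2, 94.4 and 109 RPKM in PBS. PBS replicate 11 was highest and PBS replicate 12 lowest, so the miR range lies inside the PBS range. The transcript B230216N24Rik overlaps Pam on the same strand at a mean of 3.42 RPKM.

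Apart from Vgf, the granin genes spanned 1.15-fold to 1.29-fold between animals. The within-group SD of Chga was above that of 58.7% of genes averaging 20 RPKM or more. For Scg3 this share was 50.5% and for Scg2 24.7%. Scg2, the precursor of secretoneurin (chr1:79431244-79436665, minus strand), measured 388, 426 and 454 RPKM at the lowest, median and highest in miR, against 368, 388 and 431 RPKM in PBS. Scg3, which tethers granin cargo to the vesicle membrane (chr9:75491173-75531863, minus strand), measured 116, 128 and 137 RPKM in miR, against 109, 118 and 134 RPKM in PBS. In both genes the miR median is the higher and the ranges overlap. Chga (chr12:103793179-103803237, plus strand) measured 71.5, 84.7 and 90.8 RPKM in miR, against 76.8, 84.4 and 92.1 RPKM in PBS, and Chgb (chr2:132607014-132620808, plus strand) 89.2, 98.3 and 100.3 RPKM in miR, against 87.2, 95.9 and 99.5 RPKM in PBS. These 2 genes, which encode chromogranins A and B, nearly coincide between the groups. Vgf, a granin-like precursor that nerve growth factor is known to induce (chr5:137506165-137509221, plus strand), measured 39.9, 69.4 and 76.9 RPKM in miR, against 51.9, 73.1 and 75.3 RPKM in PBS. The 3 lowest libraries of Vgf were miR replicate 6, PBS replicate 10 and miR replicate 4.

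None of the 10 genes passed the test of miR against PBS. The limma fit called 0 of 13270 genes (0%) at an adjusted p of 0.05, and 2686 had an unadjusted p under 0.05 (20.2%). Of the 10 genes 0 passed and 0 had an unadjusted p under 0.05. Their estimates were higher in miR for 7 (Pcsk1, Pcsk2, Cpe, Pam, Scg2, Scg3 and Chgb) and lower for 3 (Pcsk1n, Chga and Vgf), with a median log2 difference of 0.09, against 52.8% higher and a median of 0.01 over all tested genes. Pcsk1 had the smallest p of the 10: it averaged 36.1 ± 3.91 RPKM in miR, against 31.4 ± 7.47 RPKM in PBS (SD, n = 6 each), or 0.22 on the log2 scale (standard error 0.12, adjusted p = 0.314 in limma). The estimate of Pcsk1 was 0.10 with the GC correction. It was 0.11 without PBS replicates 8, 9, 10 and 12 and 0.14 with the nuclear RNA covariate (standard error 0.18 each). It was 0.16 without PBS replicate 7 and 0.33 without PBS replicate 11 (adjusted p = 0.403 and 0.060 in limma). Without both it was 0.28, and with library weights 0.29 (adjusted p = 0.0505 and 0.053 in limma), each just short of the threshold. Scg2 followed at 0.10 (standard error 0.06, adjusted p = 0.334 in limma). The standard error of 0.48 of Pcsk1n, beside its difference of -0.17 (adjusted p = 0.855 in limma), shows that a change of that size or of the opposite sign could not be told from 0 in these 12 animals.

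PBS replicates 7 and 11 decided how many genes passed over the whole table, but brought in none of the 10. Without PBS replicate 7, 909 of 13268 genes passed (6.85%), without PBS replicate 11, 429 of 13272 (3.23%), and without both, 3107 of 13275 (23.4%), each with 0 of the 10 genes. In bulk tissue, fewer cells of a type and less RNA per cell cannot be told apart, which holds for every level given here. Some signs changed with the libraries of high Meg3 left out: without PBS replicates 8, 9, 10 and 12, Chga was at 0.06 on the log2 scale, Cpe at -0.03 and Scg3 at -0.0002.

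**Figure D2:**
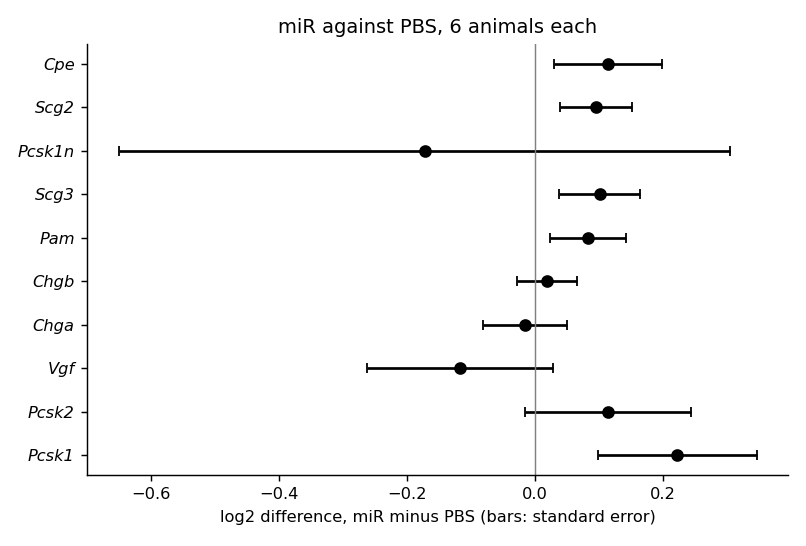
Log2 difference of miR minus PBS for the 10 genes, in order of level, with bars for the standard error of the limma fit. All points except Pcsk1n lie between -0.12 and 0.22, and no gene passed an adjusted p of 0.05.

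The summed level of the peptide precursors was taken as the load that this machinery has to process. It is the sum over 39 neuropeptide precursor genes, of which 27 averaged 1 RPKM or more, and Oxt and Avp together made up 68.7% to 86.5% of it. The load was 2568 RPKM at the lowest, 4599 at the median and 6058 at the highest in miR, against 2908, 4429 and 6409 RPKM in PBS. The groups overlap over most of their range, at 4455 ± 1290 RPKM in miR, against 4603 ± 1320 RPKM in PBS (SD, n = 6 each). The log2 difference was -0.05, with a 2-sided exact permutation p of 0.838 over 924 labelings.

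Pcsk1n and Vgf had the steepest slopes on the load, but neither passed over the whole table. In a limma fit with group and load, 0 of the 10 genes passed, while 2 of 13270 genes (0.0151%) did, Oxt, which is itself in the load, and the PVN transcription factor gene Otp. The slopes of 9 of the 10 genes were positive (all but Cpe), against 54.0% of all genes, and 2 of the 10 had an unadjusted p under 0.05, against 6.33% of all genes. Pcsk1n had a slope of 1.55 with a standard error of 0.44, in log2 units per log2 unit of load (adjusted p = 0.587 in limma), and Vgf a slope of 0.47 with a standard error of 0.14 (adjusted p = 0.587 in limma). Without miR replicate 6 the slope of Vgf was 0.25. The other 8 slopes ran from -0.002 (Cpe) to 0.30 (Pcsk2).

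PBS replicate 7 decided the call of Pcsk1n. That library had the second lowest load of all, 2908 RPKM, but a Pcsk1n level of 249 RPKM, which is among the highest. Without PBS replicate 7 the slope of Pcsk1n was 2.36 with an adjusted p of 0.000158 in limma, where 138 of 13268 genes passed (1.04%), and without PBS replicates 7 and 11 it was 2.48 (adjusted p = 0.000194). With library weights 502 genes passed (3.78%), among them Pcsk1n (slope 2.16, adjusted p = 0.0031) and Vgf (slope 0.68, adjusted p = 0.0095). PBS replicate 7 also had the highest oligodendrocyte marker score, at 2.15, against -0.64 to 0.90 in miR and -1.40 to -0.07 in the other PBS libraries. All 9 oligodendrocyte markers passed the filter, none was at 0, and they summed to 565 to 928 RPKM in miR, against 401 to 1463 RPKM in PBS. Their part in the result was not tested.

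Correlations pooled over the 12 libraries show the same division, but those within PBS do not. Of 10 relations of these genes with the load, Pcsk1n had a Pearson r of 0.70 (permutation p = 0.013) and a Spearman rho of 0.65 (permutation p = 0.0265), and r was 0.93 without the 2 libraries farthest from the median load, PBS replicate 7 and miR replicate 6. Within the groups, r of Pcsk1n was 0.98 in miR (exact permutation p = 0.0014), where the order of the 6 libraries was the same by Pcsk1n and by load, and 0.28 in PBS (exact permutation p = 0.59). Vgf had a Pearson r of 0.70 (permutation p = 0.0091) and a rho of 0.83 (permutation p = 0.0013), and r was 0.56 without the same 2 libraries. Within the groups r of Vgf was 0.79 in miR (exact permutation p = 0.054) and 0.59 in PBS (exact permutation p = 0.218). Whether the groups differ in these relations was not tested. The convertase gene Pcsk1 had an r of -0.18 in miR and 0.89 in PBS (exact permutation p = 0.719 in miR and 0.017 in PBS). The Benjamini-Hochberg adjusted values over all genes are those of the slopes above.

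**Figure D3:**
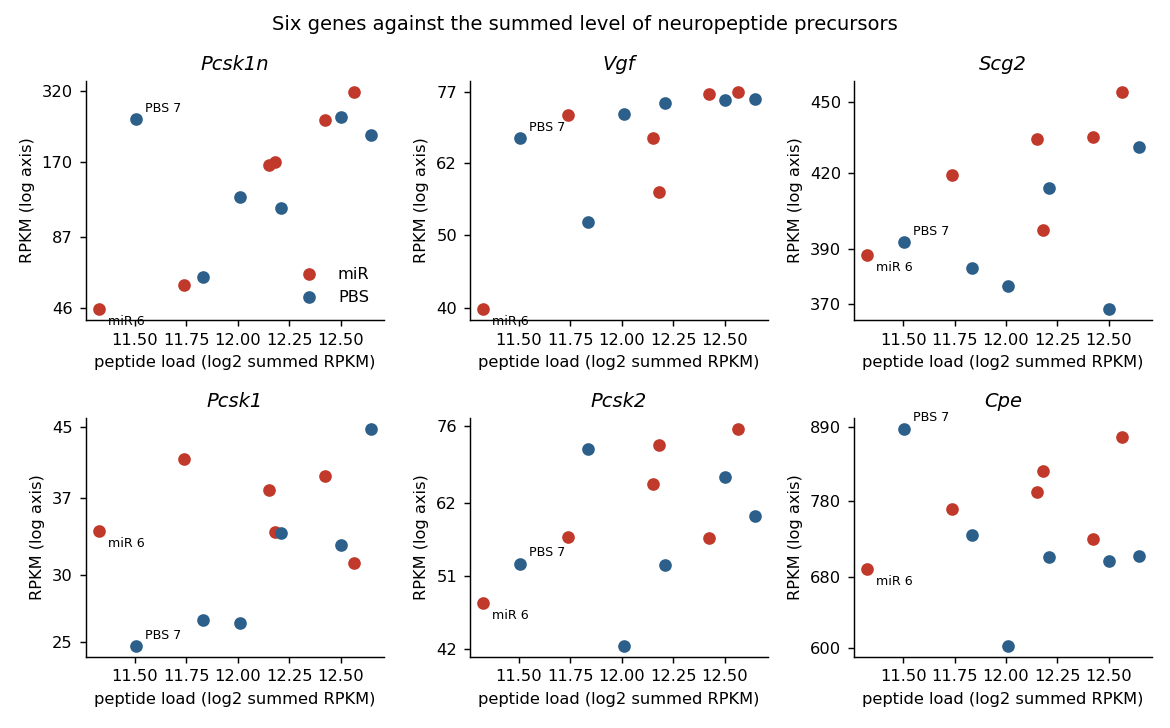
RPKM of Pcsk1n, Vgf, Scg2, Pcsk1, Pcsk2 and Cpe on log axes against the log2 summed RPKM of 39 peptide precursors, one point per library, miR red and PBS blue. PBS replicate 7, labelled PBS 7, stands above the trend of the other libraries for Pcsk1n at 249 RPKM, and the Cpe panel shows no trend (slope -0.002).

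With other measures of the load neither slope passed. With Oxt alone as the load the slope of Pcsk1n was 1.33, with Avp alone 0.46, with the precursors other than Oxt and Avp 3.22, and with the load as a mean z-score 1.67, all with adjusted p above 0.05 in limma. The slope of Vgf was 0.39, 0.20, 0.93 and 0.53 in the same order. Both genes kept a positive slope with a general neuronal marker score as a covariate, 1.56 for Pcsk1n and 0.46 for Vgf. With each library corrected for its trend with transcript GC content the slopes were 1.49 for Pcsk1n and 0.31 for Vgf. The transcripts of these 2 genes are GC-rich, at 57.3% for Pcsk1n and 64.8% for Vgf, against 40.6% for Pcsk1. Chga is GC-rich too, at 58.4%, and its slope on the load was 0.06 without the correction.

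The lowest Pcsk1n values lay in the libraries with the highest Fos. Fos belongs to the immediate early genes, which neurons switch on within minutes of strong activity. The 5 libraries with the lowest Pcsk1n, miR replicates 2 and 6 and PBS replicates 8, 10 and 12, at 124 RPKM or less, were the 5 with the highest Fos, at 19.6 RPKM or more. In the other 7 libraries Pcsk1n was at 165 RPKM or more and Fos at 9.12 RPKM or less. Fos itself measured 3.24, 7.84 and 57.3 RPKM at the lowest, median and highest in miR, against 2.19, 13.1 and 57.3 RPKM in PBS, so both groups hold both kinds of library. The 15 tested immediate early genes belong to a list of 17 whose sum was 61.5 to 236 RPKM in miR, against 55.8 to 265 RPKM in PBS. The split was noticed after the values were seen.

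In a limma fit with group and the mean z-score of 15 immediate early genes, Pcsk1n had a slope of -1.21 log2 units per unit of score, with standard error 0.28 (adjusted p = 0.196 in limma). Of the 10 genes 0 passed, against 22 of 13270 genes (0.166%), 10 of them immediate early genes of the score itself. Without PBS replicate 8 the slope of Pcsk1n was -1.53 and passed (adjusted p = 0.0405 in limma), where 27 of 13269 genes passed (0.203%). The thalamic markers moved with the same score: the slopes of all 8 were negative, with a median of -0.44 and 6 at an unadjusted p under 0.05, against 10.8% of all genes. They summed to 154 to 423 RPKM in miR and 189 to 320 RPKM in PBS, and none was at 0. Pcsk1n had an r of 0.50 with the thalamic score after centring, and 0.79 in miR and 0.03 in PBS. The part of these markers in the Pcsk1n slope was not tested. The immediate early genes also moved against the load: of 15 slopes on the load 11 were negative and 4 positive, with a median of -0.94. Of these, 7 had an unadjusted p under 0.05 in limma, against 6.33% of all genes. No fit held both the load and this score, so the 2 slopes of Pcsk1n cannot be told apart here. Over the 24 alternatives run, the slope of Pcsk1n lay between -1.58 and -0.97 with adjusted p from 0.0405 to 0.433. Pearson's r over the 12 libraries was -0.76 and rho -0.76, given as a description, and r was -0.82 without the 2 libraries farthest from the median score. Vgf and Scg2, known from other settings as activity-linked genes, had slopes of -0.11 (standard error 0.13) and -0.002 (standard error 0.05). Of the 10 slopes 6 were negative, those of Pcsk2 (-0.20, standard error 0.11), Cpe (-0.10) and Pam (-0.05) among them, and those of Chga, Chgb, Scg3 and Pcsk1 ran from 0.03 to 0.05.

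The genes closest to Pcsk1n in pattern over the libraries, after each group was centred on its mean, were Jund (r = 0.994), an AP-1 transcription factor gene, and Gm16517 (r = 0.992), out of 9146 genes averaging 5 RPKM or more. Jund measured 13.1, 28.3 and 39.4 RPKM at the lowest, median and highest in miR, against 18.0, 27.5 and 36.6 RPKM in PBS. Both are GC-rich, with 67.1% GC in Jund and 65.3% in Gm16517. Among the 40 ranked genes of 65% GC or more the median r with Pcsk1n was 0.72, and among the 448 of 60% to 65% it was 0.37. Pcsk1n itself, at 57.3%, lies in the range of 55% to 60%, where the median r of 1925 genes was -0.008. In the 2451 genes of 50% to 55% the median r was -0.12. The GC correction worked in 20 bins of GC content, so for Pcsk1n it rests on genes near its own content. With the GC correction the slope of Pcsk1n on the load was 1.49, against 1.55 without it, and that on the immediate early score was -1.34 (adjusted p = 0.067 in limma), against -1.21 without it. Its difference of miR minus PBS was -0.05 with the correction, against -0.17 without it.

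**Figure D4:**
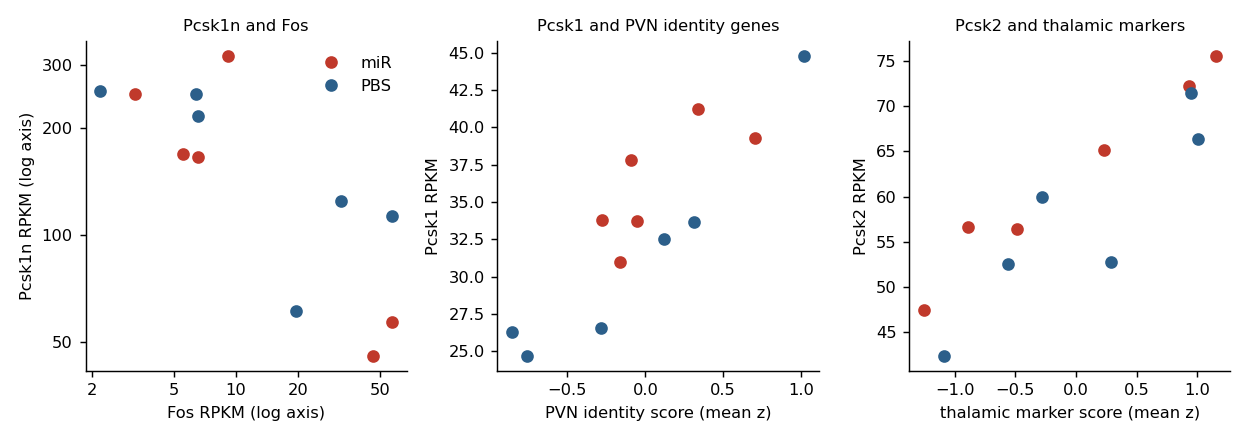
Left, Pcsk1n against Fos on log axes; centre, Pcsk1 RPKM against the mean z-score of 7 PVN genes; right, Pcsk2 RPKM against the mean z-score of 8 thalamic markers; one point per library, miR red and PBS blue. The 5 libraries with Fos at 19.6 RPKM or more hold the 5 lowest Pcsk1n values, and Pcsk2 climbs with the thalamic score in both groups.

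Pcsk2 followed the thalamic markers, and this slope passed the threshold. The thalamus borders the punched area. In a fit with group and the score of 8 thalamic markers such as Prkcd and Tcf7l2, added after the data were seen, Pcsk2 had a slope of 0.26 log2 units per unit of score, with standard error 0.04 (adjusted p = 0.000788 in limma). In that fit 291 of 13270 genes passed (2.19%), and Pcsk2 was the 1 of the 10 genes that did. The adjusted p stayed between 2.98e-05 and 0.0399 over 24 alternatives, highest without PBS replicates 8, 9, 10 and 12. All 8 thalamic markers, with the sums given above, passed the filter. Pearson's r of Pcsk2 with the score was 0.98 in miR and 0.88 in PBS, as a description. The 2 genes most like Pcsk2 in pattern were Gm11837 (r = 0.977) and Necab1 (r = 0.974), a neuronal calcium-binding protein gene, at 36.4 ± 13.3 RPKM in miR, against 33.4 ± 12.7 RPKM in PBS (SD, n = 6 each).

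Pcsk1 had its highest correlation with the PVN genes, with a slope that did not pass. This slope on the score of 7 PVN genes was 0.40 with a standard error of 0.06, at an adjusted p of 0.104 in limma, in a fit where 0 of 13270 genes passed (0%). The unadjusted p was 8.2e-06. Pearson's r after centring was 0.92, and within the groups 0.74 in miR and 0.97 in PBS, again as a description. Pam, the amidating enzyme gene, had the next highest r with the PVN score, 0.76 after centring. PBS replicate 11 had the highest PVN score (1.02) and the highest Pcsk1 (44.7 RPKM), while PBS replicates 7 and 12 had the lowest scores (-0.76 and -0.86) with Pcsk1 at 24.7 and 26.3 RPKM. Pcsk1 and Pcsk2 thus had their highest r with different marker lists. A test of the difference between the 2 genes was not run.

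Of the other genes, Chga had its highest r with the general neuronal markers (r = 0.76 after centring, slope 0.20, adjusted p = 0.627 in limma), and Cpe the oligodendrocyte and thalamic markers (r = 0.68 and 0.66). Scg3 had an r of 0.66 with astrocyte markers and -0.62 with vessel markers. The steadiest genes, Scg2 and Chgb, had no r above 0.56 with any of these lists or the load. Over the 9 marker lists and 10 genes, only the Pcsk2 slope on the thalamic score passed in limma. Of all tested genes 0.52% passed on the astrocyte score, 0.663% on the oligodendrocyte score and 6.05% on the score of 6 nuclear-retained RNAs, and 0% on the neuronal, microglial, vessel and choroid plexus scores. All 9 astrocyte markers summed to 1065 to 1210 RPKM in miR, against 876 to 1119 RPKM in PBS, and none was at 0.

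**Figure D5:**
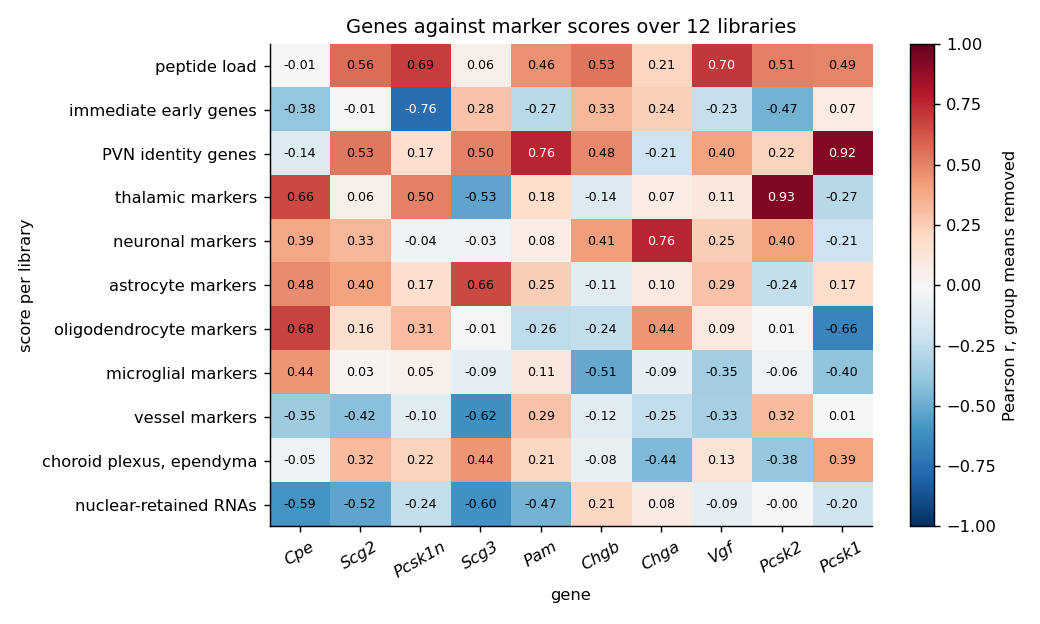
Pearson's r, with group means removed, of the 10 genes (columns, in order of level) with the peptide load and 10 marker scores (rows) over 12 libraries, red above 0 and blue below. Pcsk2 with thalamic markers (0.93) and Pcsk1 with PVN genes (0.92) are the strongest cells.

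Among themselves the 10 genes moved together weakly. Over the 45 pairs the median r after centring was 0.31, with 40 pairs above 0 and 8 above 0.6, in values that share libraries and therefore depth and tissue. The highest pair was Pcsk1 with Pam (0.71), followed by Pcsk1n with Vgf (0.67), Scg2 with Scg3 (0.66), Pcsk1 with Scg3 (0.66) and Chga with Chgb (0.65). The lowest was Pcsk2 with Scg3 (-0.35), followed by Pcsk1 with Cpe (-0.27). The 3 pairs of the genes with the full palindrome had r of 0.62 (Scg2 with Chgb), 0.45 (Pcsk1 with Scg2) and 0.43 (Pcsk1 with Chgb). The genes most like the mean profile of the 10 were Adra2a (r = 0.91), which encodes an adrenergic receptor, Cntn4 (0.86), Gtf2f2 (0.84), Eif3c (0.83) and Magee1 (0.83).

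For the remaining genes the closest patterns were those of Rod1 (0.97) and Stk32a (0.96) for Pcsk1, Ppap2b (0.95) and Bcl2l2 (0.94) for Cpe, and Ube4b (0.91) and Slc39a10 (0.90) for Pam. For the granins they were Mrpl17 and Atxn10 (0.93 each) for Scg2, Xk (0.93) and Nudt11 (0.92) for Scg3, and Marchf9 (0.92) and Slmo2 (0.86) for Chga. Lhfpl5 (0.91) and Nol10 (0.85) were closest to Chgb, and Lrrc24 (0.88) and Magee1 (0.87) to Vgf. All are Pearson's r over 12 libraries among the same 9146 genes.

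The other genes of the pathway were taken from lists made for this purpose. In the main fits none passed in miR against PBS, on the load or on the immediate early score. With library weights 3022 of 13270 genes passed in miR against PBS, among them Pcsk7, Pcsk4, Cpd, Hid1, Syt10 and Nln. On the load 502 passed with weights, among them Thop1 (0.37) and Syt5 (0.24). Of 8 genes of other convertases and the chaperone of Pcsk2, 7 were tested, with 3 higher and 4 lower in miR. Pcsk7, a ubiquitous convertase of the trans-Golgi network, measured 3.45, 4.01 and 4.32 RPKM at the lowest, median and highest in miR, against 4.35, 4.95 and 5.65 RPKM in PBS. The groups do not overlap, as in 0.482% of all tested genes. It was at -0.28 on the log2 scale (standard error 0.07, adjusted p = 0.174 in limma). It passed without PBS replicate 7 (-0.31) and without PBS replicate 11 (-0.31), where 6.85% and 3.23% of all genes passed, and was at -0.13 with the nuclear RNA covariate and -0.14 without PBS replicates 8, 9, 10 and 12. Pcsk4, a convertase best known from germ cells, averaged 1.90 ± 0.303 RPKM in miR, against 3.37 ± 1.40 RPKM in PBS (adjusted p = 0.184 in limma). Its log2 difference was -0.61, and 0.09 once the nuclear RNA score was a covariate. It also passed without PBS replicate 7 (-0.73) or 11 (-0.77) and was at 0.11 without PBS replicates 8, 9, 10 and 12. Pcsk7 and Furin, a convertase of the constitutive pathway, had the smallest p on the load, with slopes of 0.13 and 0.14.

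Of 14 other maturation enzymes 11 were tested, with 5 higher and 6 lower in miR. Cpd, a carboxypeptidase of the trans-Golgi network, averaged 13.7 ± 0.394 RPKM in miR, against 12.1 ± 1.42 RPKM in PBS (log2 difference 0.18, adjusted p = 0.192 in limma), and was at 0.08 with the nuclear RNA covariate and 0.03 without PBS replicates 8, 9, 10 and 12. Rnpep, an aminopeptidase gene, averaged 11.02 ± 1.45 RPKM in miR, against 13.0 ± 1.75 RPKM in PBS (log2 difference -0.23, adjusted p = 0.219 in limma) and had a slope of 0.23 on the load. Without PBS replicates 7 and 11 together, Cpd passed at 0.26 (adjusted p = 0.0116 in limma) and Rnpep at -0.34 (adjusted p = 0.0165 in limma). In that fit 23.4% of all genes passed. Tpst2, which sulfates tyrosines, had a slope of 0.18 on the load. The 6 genes of copper and ascorbate supply, which Pam needs, had a median log2 difference of 0.05, with Slc23a2, an ascorbate transporter, at 0.10 and Slc31a1, a copper transporter, at 0.11. On the load, Slc31a2, a related copper transporter, had a slope of -0.17 and Slc31a1 one of -0.08.

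Of the 30 genes of vesicle formation, acidification and release, all tested, 15 were higher and 15 lower in miR, and 6 had an unadjusted p under 0.05, the share of all genes being 20.2%. Hid1, a Golgi protein gene needed for dense-core vesicle formation, averaged 31.1 ± 1.59 RPKM in miR, against 36.2 ± 4.51 RPKM in PBS (log2 difference -0.21, adjusted p = 0.187 in limma). Syt10, a vesicle calcium sensor gene, averaged 17.5 ± 1.39 RPKM in miR, against 14.1 ± 3.24 RPKM in PBS (log2 difference 0.33, adjusted p = 0.186 in limma). Both passed without PBS replicate 7, at -0.27 (Hid1) and 0.42 (Syt10), in the fit where 6.85% of all genes passed. With the nuclear RNA covariate Hid1 was at -0.05 and Syt10 at -0.010, and without PBS replicates 8, 9, 10 and 12 they were at -0.02 and -0.036, so the sign of Syt10 turned in both. On the load, Sytl4, an effector of vesicle docking, had a slope of -0.37 and Syt5, a vesicle synaptotagmin, one of 0.19 (adjusted p = 0.546 and 0.682 in limma).

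Of 12 genes that break down released peptides 9 were tested, with 5 higher and 4 lower in miR. Thop1 and Nln, related oligopeptidase genes, had log2 differences of -0.21 and 0.13 (adjusted p = 0.245 and 0.270 in limma). Thop1 averaged 12.3 ± 2.38 RPKM in miR, against 14.1 ± 0.449 RPKM in PBS (SD, n = 6 each). On the load Thop1 had a slope of 0.27 and Mme, which encodes neprilysin, one of -0.29. In the same fit Sst, the precursor of somatostatin, which is itself in the load, had a slope of 0.48 (adjusted p = 0.598 in limma).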

How the data were processed

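Polyadenylated RNA of PVN punches (1.0 mm needle, 2 slices of 300 µm per animal) was sequenced from 250 ng of total RNA in stranded libraries, per the labels' protocols. The deposited table, made by the authors, holds RPKM for 30399 transcript rows and has a column for each of the 12 animals. The submitters' processing notes name mm9 and edgeR, and the aligner, the counter and its strand setting were not given in the sources used here. A gene took its row of highest mean (913 rows had no symbol, and 868 of them were named by accession).

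Values were log2(RPKM + 0.5) of genes averaging 1 RPKM or more, which understates changes of low genes. Fits used limma 3.58.1 in R 4.3.3 (empirical Bayes with trended variance, 2-sided; p adjusted by Benjamini-Hochberg over all 13270 genes, threshold 0.05): miR against PBS without covariates, and slopes on the peptide load, the immediate early score and the marker scores with a group term. Scripts were tested on simulated data. GC content came from GENCODE M21 transcripts (98.0% of tested genes), and promoters from RefSeq. Member genes were described by their rank of likeness (the 2 genes of highest r, 5 for the mean profile), and in each pathway list by the 2 genes of smallest p per fit. Oxt, Avp, Crh, Fos and Meg3 were always included, as were the 5 peptide precursors of highest mean. The members and lists were chosen with earlier results of these data known. Alternatives were other pseudocounts, filters, scalings, weights, covariates, loads and libraries; the GC correction and the marker slopes were added after the data were seen. Approximate reads follow from depth and length, and no interval was made from them.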

Additional observations from a re-analysis of the deposited data

Results flagged for a closer look

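In 22 groups of 6 libraries tested for a library far from the others, 10 genes and the load in each group, 1 was found, where chance alone gives about 1 in 20 groups. It was Vgf in PBS, where replicate 10 measured 51.9 RPKM and the other 5 PBS libraries 66.8 to 75.3 RPKM. The same library had the lowest Pcsk1n of the PBS group, at 61.1 RPKM, and the lowest Vgf of the miR group was 39.9 RPKM, in replicate 6.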

How the results depend on the processing

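Estimates of the 10 genes kept direction and side of the threshold in 220 of 240 values for miR against PBS (20 reversed), 274 of 300 for the load (22 reversed, 4 newly past it) and 223 of 240 for the immediate early score (16 reversed, 1 newly past it). The cause of the shifts was not tested. Part of the agreement was fixed in advance. The filters and the variance trend cannot change a gene's log2 difference, and the mean over rows can change only that of Scg3. None of the 10 genes was past the threshold in the main fit of these comparisons, so keeping its side of it says little. No paired analysis was possible because the labels give no litter or other pairing of miR with PBS animals.

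With library weights 3022 genes passed in miR against PBS and 502 on the load, 2 of them among the 10; without PBS replicates 7 and 11 these were 3107, 153 and 1, and 13 genes passed on the immediate early score. On that score 13 genes passed with the nuclear RNA covariate and 8 without PBS replicates 8, 9, 10 and 12. On the load 1 gene passed without those 4 libraries, with Avp alone and with the GC correction, and 0 with no filter, without Oxt and Avp and with the mean z-score. Leaving out 1 library gave 0 to 909 genes in miR against PBS (0 of the 10), 1 to 138 on the load and 12 to 27 on the immediate early score (0 to 1 of the 10 each). The log2 load difference was 0.030 with Oxt alone, 0.038 without Oxt and Avp, and -0.18 to 0.095 with 1 library left out.

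Log2 differences reversed as follows. With the nuclear RNA covariate they were 0.023 (Avp), 0.0016 (Chga), -0.048 (Cpe), -0.0041 (Pam), 0.085 (Pcsk4), -0.017 (Scg3), -0.011 (Slc23a2) and -0.010 (Syt10). Without PBS replicates 8, 9, 10 and 12 they were 0.012 (Avp), 0.057 (Chga), -0.027 (Cpe), -0.0014 (Oxt), 0.11 (Pcsk4), -0.00024 (Scg3), -0.0060 (Slc23a2) and -0.036 (Syt10). Without PBS replicates 7 and 11 they were -0.0025 (Chgb) and 0.14 (Pcsk1n), with library weights 0.40 (Pcsk1n), with median scaling 0.0029 (Chga), and with the GC correction 0.10 (Chga) and 0.034 (Vgf). With 1 library left out they ran from -0.041 to 0.029 (Chga), -0.0034 to 0.040 (Chgb), -0.43 to 0.14 (Pcsk1n), -0.20 to 0.015 (Vgf) and -0.093 to 0.22 (Oxt).

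Load slopes of Cpe were 0.050 with library weights, 0.023 with the nuclear RNA covariate, 0.15 without PBS replicates 7 and 11, 0.0031 without replicates 8, 9, 10 and 12, 0.012 with Oxt alone, 0.25 without Oxt and Avp, 0.19 with the mean z-score and 0.0039 with the GC correction. Those of Pcsk1 were -0.083 without Oxt and Avp and -0.12 with the mean z-score. Those of Scg3 were -0.0052 with median scaling, -0.026 without PBS replicates 7 and 11, -0.00037 with Avp alone and -0.11 without Oxt and Avp. With 1 library left out they ran from -0.066 to 0.11 (Chga), -0.12 to 0.15 (Cpe) and -0.048 to 0.048 (Scg3). On the immediate early score Chga was at -0.076 without PBS replicates 8, 9, 10 and 12 and Pcsk1 at -0.014 with a filter at 5 RPKM. Scg2 was at 0.0078 with library weights, 0.010 with the nuclear RNA covariate and 0.014 without PBS replicates 7 and 11. With 1 library left out Pcsk1 ran from -0.032 to 0.073, Scg2 from -0.038 to 0.021 and Vgf from -0.21 to 0.015. Depth limits little at these levels, since the smallest value rests on about 2280 reads.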
